A study of Mus musculus with 16 samples.

Results

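Respiratory complex I is the entry point of the mitochondrial electron transport chain. It oxidizes NADH, passes the electrons through a row of iron-sulfur clusters to ubiquinone, and couples that transfer to the pumping of protons across the inner membrane. The matrix arm of the complex holds an N module, which takes up NADH, and a Q module, which reduces ubiquinone, and the membrane arm holds a proximal and a distal pumping module. Most subunits are encoded in the nucleus under the names Ndufa, Ndufb, Ndufc, Ndufs and Ndufv, and skeletal muscle fibers rely on them for oxidative ATP production.

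The genes described here are all those whose symbol is Ndufa, Ndufb, Ndufc, Ndufs or Ndufv followed directly by a number. This rule found 34 genes with 44 probes among the 16593 named genes and 25697 probes of the array. Of these genes, 27 had 1 probe and 7 had more than 1, with 17 probes between them. Each gene is represented by its brightest probe unless another probe is named. Ndufa4 carries a complex I name but is now assigned to cytochrome c oxidase, and Ndufs5-ps is annotated as a transcribed pseudogene. A near-identical parent gene can share signal with the Ndufs5-ps probe, so its identity is uncertain. Ndufs5, Ndufa11, Ndufb1, Ndufa4l2 and the 7 subunits encoded by mitochondrial DNA were not analysed here.

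Each group consisted of 8 males aged 22 months, with littermates as controls, and all mice were homozygous for loxP-flanked Atf4. The ATF4 mKO group, ATF4(L/L);MCK-Cre(Tg/0), had a Cre transgene under the creatine kinase promoter of muscle, so that recombination is limited to striated muscle cells, the heart included. The control group, ATF4(L/L);MCK-Cre(0/0), was without this transgene. Quadriceps femoris RNA of each mouse was read on 1 bead array, and other cell types of the muscle keep an intact Atf4 gene in both groups. ATF4 is a transcription factor of the integrated stress response that activates genes of amino acid supply. The comparison asked which muscle mRNAs depend on it in old age.

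Log2 signals ran from 8.25 to 15.4 with a floor near the array medians of 8.378 to 8.381, and a signal at the floor compresses any difference. A mean below 8.5 was found for 3 of the 44 complex I probes, against 65.7% of all probes. The deleted gene itself, Atf4, had a log2 signal of 8.52 ± 0.05 in ATF4 mKO mice and 10.45 ± 0.12 in control mice (SD, n = 8 each), and no ATF4 mKO mouse reached the range of the controls. Among markers of muscle fibers, the fast fiber genes Atp2a1 and Tnni2 had mean log2 signals of 14.97 and 14.94 in ATF4 mKO mice and 14.93 and 14.91 in control mice, near the top of the scale. Other markers went the other way: 5 of the 11 measured fast fiber genes and all 10 slow fiber genes had a lower mean in ATF4 mKO mice. In whole muscle, fewer cells of a type and less RNA per cell cannot be told apart. With 8 arrays per genotype, precision is limited by their number.

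Complex I mRNAs in aged quadriceps differed little between the genotypes. None of the 34 genes and none of the 44 probes passed the test (limma, adjusted p of 0.1 or less over 25697 probes), where 0.136% of all probes and 0.151% of all genes did (0.0973% of probes lower and 0.0389% higher in ATF4 mKO mice). At an unadjusted limma p of 0.05 or less stood 4 of the 34 genes (Ndufv1, Ndufa5, Ndufa10 and Ndufb11) and 4 of the 44 probes, against 5.76% of all genes and 5.62% of all probes. Since 33 of the 34 members lay above the floor, genes above the floor are the closer background. Of those 6380 genes, 527 had an unadjusted limma p of 0.05 or less. At the adjusted threshold, 15 of the 6380 were called lower and 7 higher in ATF4 mKO mice. The groups overlapped for every member, whereas they did not for 0.101% of all probes. The methods' t-test at an unadjusted p of 0.025 called 1 gene and 1 probe of the members, Ndufv1, against 2.92% of all genes and 2.85% of all probes.

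The log2 differences (ATF4 mKO minus control) ran from -0.20 for Ndufb5 to 0.09 for Ndufa10, with a median of -0.0052. Over all genes above the floor the median was 0.0016. A total of 19 of the 34 members (55.9%) had a lower mean in ATF4 mKO mice, compared with 48.6% of all genes and 47.9% of genes above the floor, and 25 of the 44 probes (56.8%) did, compared with 48.5% of all probes. The median size of a member's difference, irrespective of sign, was 0.032, and the median standard error was 0.0359. The intervals bound what could have been missed in array signal, which need not equal the change in mRNA. The 95% interval of the difference lay within 0.2 log2 units of 0, or 1.15-fold, for 32 of 34 genes, and within 0.1 units, or 1.07-fold, for 14. The genes outside the wider bound were Ndufb5 and Ndufb2, and intervals at the floor, such as that of Ndufs1, are narrow because the floor compresses them. A signal above 12 was found for 26 of the 34 genes, on a scale that ended at 15.4. Whether strong signals are compressed too was not tested.

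**Figure D1:**
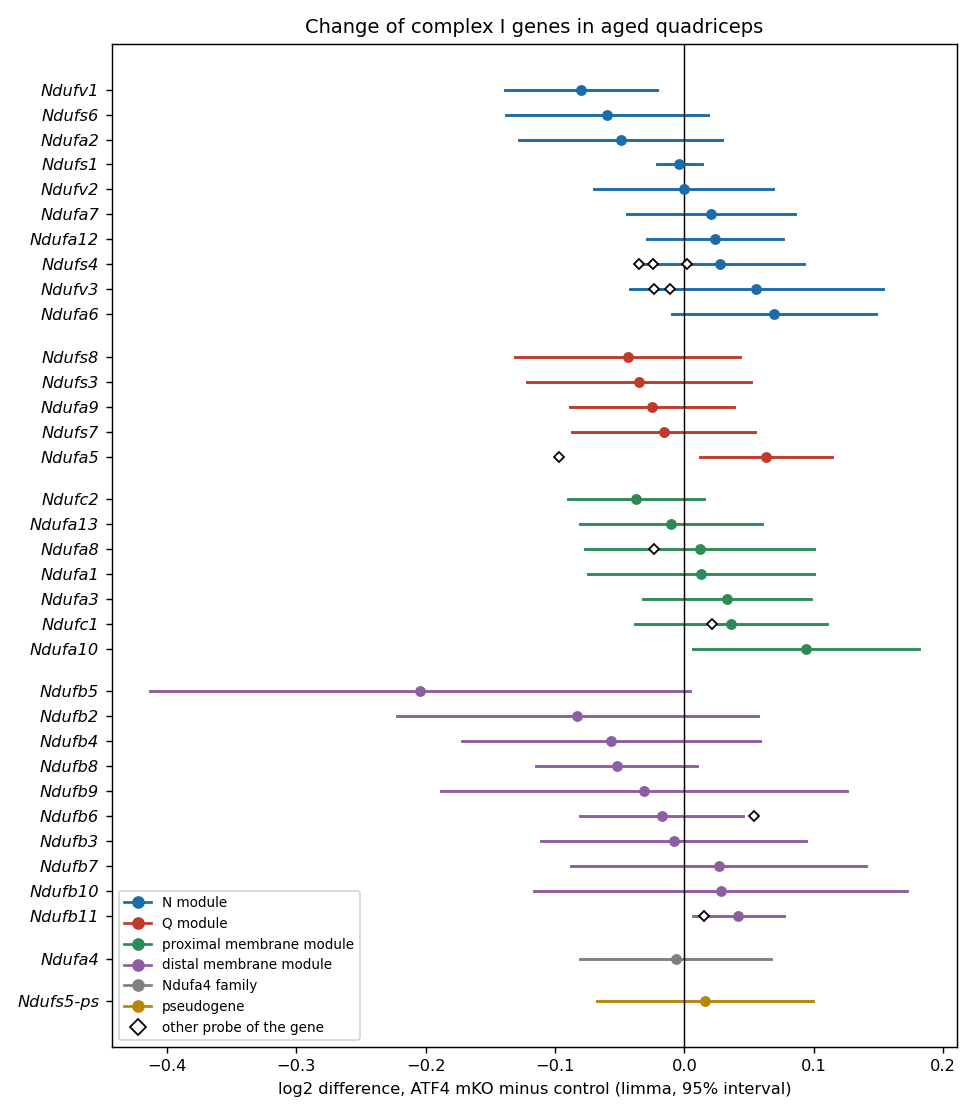
Log2 difference (ATF4 mKO minus control, horizontal axis) of each complex I gene, grouped by module, with its 95% interval from limma as a line. Filled points are the brightest probe of each gene and open diamonds its other probes; the intervals of 4 genes miss 0 and none passed the adjusted test.

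The N module, which holds the NADH-binding site, had 10 measured genes, 5 with a lower and 5 with a higher mean in ATF4 mKO mice, and a median difference of 0.01. Ndufv1, the subunit that binds NADH and the flavin, had log2 signals of 13.69, 13.78 and 13.83 (lowest, median and highest) in ATF4 mKO mice and 13.77, 13.83 and 13.96 in control mice. All 8 ATF4 mKO mice lay below the control mean, but the groups overlapped, with the lowest control below the median of the ATF4 mKO mice. The difference was -0.08 ± 0.03 (S.E.), with an unadjusted p of 0.011 and an adjusted p of 0.758 (limma). It ran from -0.09 to -0.07 as each array was left out in turn.

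Ndufv1 and the other redox subunits form the catalytic core of the matrix arm. Of the 6 measured core subunits (Ndufv1, Ndufv2, Ndufs1, Ndufs3, Ndufs7 and Ndufs8), all 6 had a lower mean in ATF4 mKO mice, with a median difference of -0.03 and none called. Ndufv2, an iron-sulfur subunit next to the flavin site, had a mean of 13.98 in both groups and a difference of -0.0005. Ndufs1, which carries further iron-sulfur clusters, had a mean signal of 8.32 on its only probe, so that its mRNA was not measurable on these arrays.

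The accessory subunits of the N module pointed both ways. Ndufa6, a small accessory protein of the LYR family, had log2 signals of 13.88, 13.99 and 14.18 (lowest, median and highest) in ATF4 mKO mice and 13.85, 13.94 and 14.01 in control mice. Ndufs6, a zinc-binding subunit, had 14.15, 14.20 and 14.35 in ATF4 mKO mice and 14.17, 14.27 and 14.41 in control mice. Both genes overlapped widely between genotypes. Their differences were 0.07 for Ndufa6 and -0.06 for Ndufs6, with adjusted p of 0.894 and 0.902 (limma). The remaining N module genes, Ndufa2, Ndufv3, Ndufa12, Ndufs4 and Ndufa7, had differences between -0.05 (Ndufa2) and 0.06 (Ndufv3).

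In the Q module, 4 of 5 measured genes had a lower mean in ATF4 mKO mice, and the median difference was -0.03. The exception was Ndufa5, an accessory subunit that supports the matrix arm. Its brightest probe had log2 signals of 14.18, 14.24 and 14.30 (lowest, median and highest) in ATF4 mKO mice and 14.11, 14.16 and 14.26 in control mice. Every ATF4 mKO mouse was above the control mean, although the ranges overlapped. The difference was 0.06 ± 0.02 (S.E.), with an adjusted p of 0.811 (limma). A dimmer Ndufa5 probe had 9.39, 9.61 and 9.79 in ATF4 mKO mice and 9.55, 9.76 and 9.87 in control mice, a difference of -0.10 with an adjusted p of 0.907 (limma). The 2 probes of Ndufa5 thus had opposite signs. Ndufs3, Ndufs7 and Ndufs8, which line the path of electrons to ubiquinone, and the accessory subunit Ndufa9 had differences between -0.04 and -0.02.

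The proximal membrane module had 7 measured genes, of which 5 had a higher mean in ATF4 mKO mice, with a median difference of 0.01. Ndufa10, an accessory subunit with a nucleoside kinase fold, had the greatest positive difference of the members. Its log2 signals were 12.96, 13.09 and 13.12 (lowest, median and highest) in ATF4 mKO mice and 12.83, 12.97 and 13.17 in control mice. In ATF4 mKO mice, 7 of 8 stood close together above the control mean and mouse 4 lay below it, whereas the controls were spread over a wider range. The difference was 0.09 (95% interval 0.0065 to 0.18), with an adjusted p of 0.860 (limma), and 0.07 to 0.12 with each array left out in turn.

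Ndufa13, also known as Grim19, had log2 signals of 14.55, 14.61 and 14.70 (lowest, median and highest) in ATF4 mKO mice and 14.44, 14.66 and 14.72 in control mice. Its probe gave one of the strongest signals among the members, with those of Ndufb8 and Ndufa4, and its difference was -0.01. The other proximal genes, Ndufc2, Ndufa8, Ndufa1, Ndufa3 and Ndufc1, had differences from -0.04 (Ndufc2) to 0.04 (Ndufc1).

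The distal membrane module, built of Ndufb subunits around the outermost pumping channels, had 10 measured genes, 7 with a lower mean in ATF4 mKO mice, and a median difference of -0.02. Ndufb5 stood out by its spread. It had log2 signals of 11.07, 11.42 and 11.82 (lowest, median and highest) in ATF4 mKO mice and 11.22, 11.69 and 11.75 in control mice. Signals of 11.07 to 11.32 were found in 4 ATF4 mKO mice (1, 2, 3 and 5) and in control mouse 2, and all other mice lay between 11.53 and 11.82. The groups therefore overlapped at both ends. The difference was -0.20 (95% interval -0.41 to 0.0044), with an adjusted p of 0.879 (limma), and it ran from -0.26, without control mouse 2, to -0.15 as single arrays were left out.

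Ndufb8, whose protein is often used as a readout of assembled complex I, had log2 signals of 14.39, 14.47 and 14.57 (lowest, median and highest) in ATF4 mKO mice and 14.45, 14.51 and 14.60 in control mice, and a difference of -0.05. Ndufb11, an X-linked subunit, lay near the floor, with 8.72, 8.79 and 8.81 in ATF4 mKO mice and 8.69, 8.72 and 8.80 in control mice. Its difference was 0.04 with an adjusted p of 0.834 (limma). Ndufb4, also dim, had 8.98, 9.14 and 9.29 in ATF4 mKO mice and 9.01, 9.22 and 9.37 in control mice, and a difference of -0.06. For all 3 genes the ranges overlapped. The rest of the distal module, Ndufb2, Ndufb3, Ndufb6, Ndufb7, Ndufb9 and Ndufb10, had differences from -0.08 (Ndufb2) to 0.03 (Ndufb10).

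Ndufa4, the subunit assigned to cytochrome c oxidase, had log2 signals of 14.44, 14.58 and 14.73 (lowest, median and highest) in ATF4 mKO mice and 14.51, 14.59 and 14.65 in control mice, with a difference of -0.0066. Ndufs5-ps had a difference of 0.02. Ndufab1, the mitochondrial acyl carrier protein that is a subunit under another type of name, had a signal at the floor, 8.38 ± 0.02 in ATF4 mKO mice and 8.38 ± 0.02 in control mice (SD, n = 8 each).

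**Figure D2:**
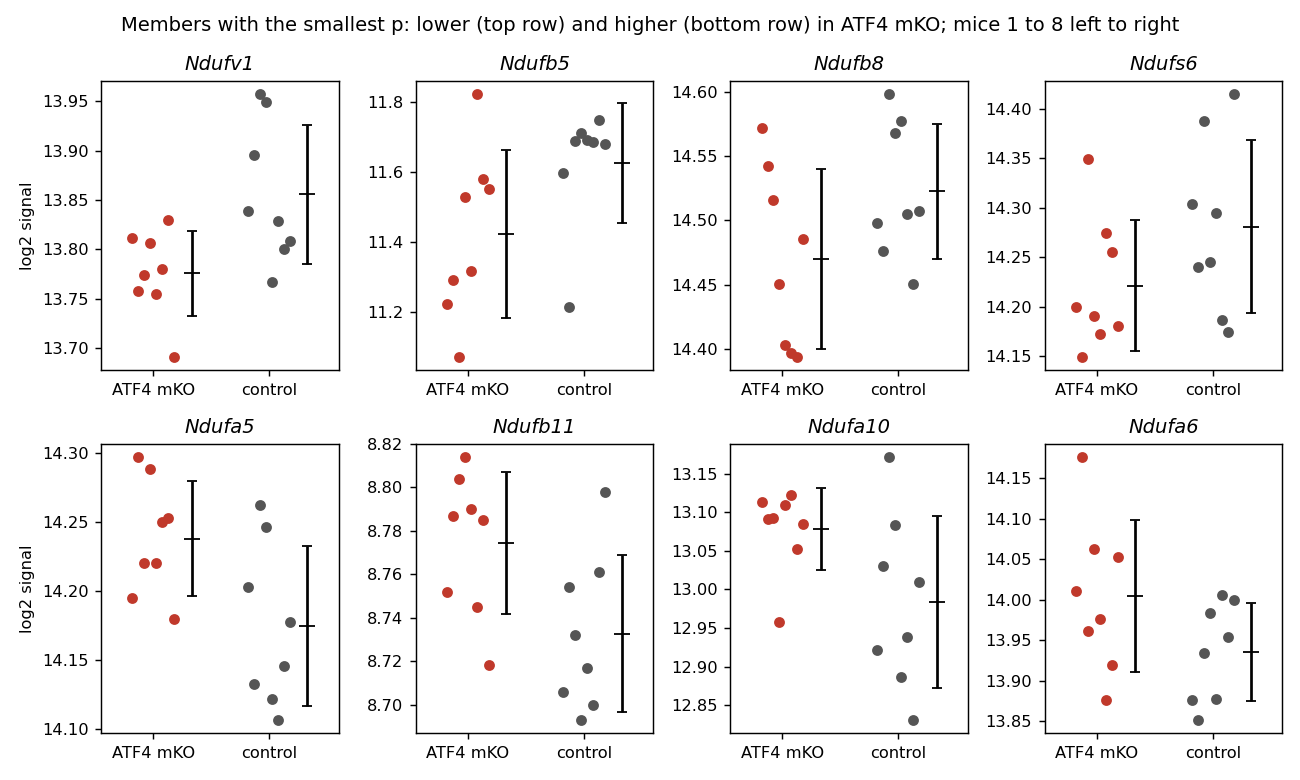
Log2 signal (vertical axis, a separate scale for each gene) of each mouse for the 4 members with a lower mean (upper panels) and the 4 with a higher mean (lower panels) that had the smallest p. Points are mice 1 to 8, ATF4 mKO on the left of each panel and control on the right, and bars show mean ± SD; the genotypes overlap in every panel, and Ndufb5 has 4 low ATF4 mKO mice and 1 low control mouse.

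Several genes had more than 1 probe, and probes above the floor differed in sign for 5 of them, Ndufa5, Ndufa8, Ndufb6, Ndufs4 and Ndufv3. The 4 probes of Ndufs4, a subunit needed for a stable N module, had differences of -0.03, -0.02, 0.0019 and 0.03. The brightest Ndufs4 probe had log2 signals of 13.49, 13.56 and 13.72 (lowest, median and highest) in ATF4 mKO mice and 13.46, 13.56 and 13.61 in control mice, with nearly the same medians. Ndufv3, a subunit of the NADH-binding tip, had 13.34, 13.42 and 13.63 in ATF4 mKO mice and 13.18, 13.40 and 13.51 in control mice on its brightest probe, a difference of 0.06, and differences of -0.02 and -0.01 on the others.

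The same disagreement held for the remaining genes of this kind. Ndufa8, a cysteine-rich subunit facing the intermembrane space, had 13.22, 13.33 and 13.51 in ATF4 mKO mice and 13.21, 13.37 and 13.43 in control mice, a difference of 0.01, and its other probe had -0.02. Ndufb6, a subunit of the membrane arm, had 13.65, 13.73 and 13.81 in ATF4 mKO mice and 13.69, 13.73 and 13.91 in control mice, a difference of -0.02, and its other probe had 0.05. Within each of these genes the range of the groups overlapped on every probe. After the genotype means were removed, probes of one gene above the floor were correlated over the 16 mice. The values were 0.243 to 0.795 for Ndufs4, 0.599 for Ndufa5 and 0.292 for Ndufb6 (Pearson r, given as a description).

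Mice of the same genotype also differed from one another. The level of complex I mRNAs in a mouse was taken as the median, over the 33 members above the floor, of the log2 signal minus the gene's mean over 16 arrays. It was -0.040, -0.0048 and 0.044 (lowest, median and highest) in ATF4 mKO mice and -0.077, 0.015 and 0.086 in control mice. The controls reached further in both directions, with control mouse 3 highest and control mouse 7 lowest of all 16 mice. In control mouse 3, 27 of 33 members were above their own mean, and in control mouse 7, 5 of 33 were. The same median over all genes above the floor stayed between -0.0054 and 0.0024 in the 16 mice. The extremes were not particular to complex I. By this measure control mouse 3 was also the highest mouse for complex III (0.12) and complex IV (0.066), although not for complex V (0.055). For complex IV, control mouse 1 (0.065) stood nearly level with control mouse 3. Control mouse 7 was the lowest for complex IV (-0.091), and for complex III (-0.063) and complex V (-0.094) it was the lowest control, with 2 and 1 ATF4 mKO mice below it.

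**Figure D3:**
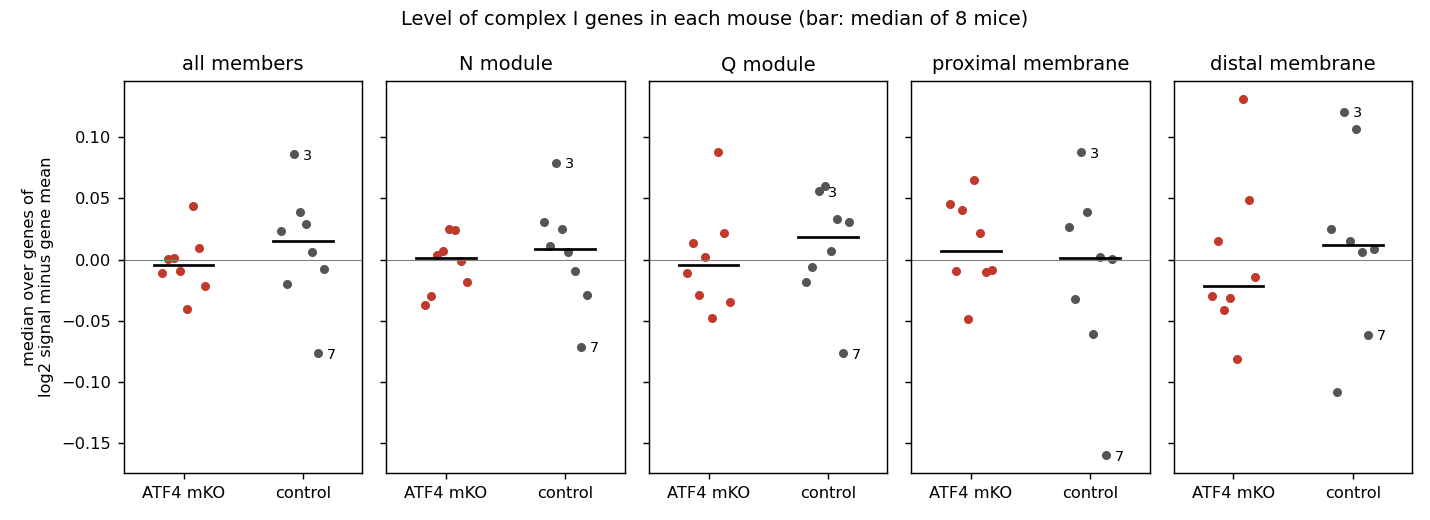
Level of complex I mRNAs in each mouse (median over genes of the log2 signal minus the gene mean, vertical axis) for all members above the floor and for each module, ATF4 mKO on the left and control on the right. Points are mice and bars the median of 8 mice; control mouse 3 (0.086) and control mouse 7 (-0.077) bound the range over all members.

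Control mouse 7 was the lowest mouse in the N, Q and proximal modules, and its level in the proximal module was -0.16. In the distal module the lowest mouse was control mouse 2 (-0.11), and the highest was ATF4 mKO mouse 6 (0.13). The SD over mice was larger in controls for 22 of 33 members (66.7%), compared with 49.6% of all genes above the floor. Without control mice 3 and 7 it was larger in controls for 11 of 33 (33.3%), compared with 39.4% of all genes above the floor. Those mice were picked as the extremes of the complex I level, so their omission narrows the control spread by selection. The drop therefore cannot show whether the wider spread belongs to those mice. Blood genes above the floor were 3 of the 4 measured, Hba-a1 and Hbb-bt among them. By the measure used for complex I they stood at 1.07 in control mouse 3, against -0.38 to 0.23 in the other 15 mice. Whether blood in the tissue bears on the complex I level of control mouse 3 was not tested.

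Complex I members varied together among mice of the same genotype. After the genotype means were removed, the median Pearson r between members with a signal above 9 (32 genes, 16 mice) was 0.235 and 77.2% of the correlations were positive. Among all 3997 genes above 9 the median was 0.0006 and 50.1% were positive. These correlations are descriptions, since the genes share arrays. Without control mice 3 and 7 the members' median was 0.101 with 60.7% positive. Omitting the extremes of the shared level lowers such correlations by selection. The drop therefore cannot show how much of the shared variation belongs to those mice.

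By module, the median r was 0.38 among the proximal membrane genes, 0.33 in the Q module, 0.26 in the distal module and 0.06 in the N module, and 0.22 between genes of different modules. Ndufs8, which holds iron-sulfur clusters close to the ubiquinone site, followed the other members most closely, with r of 0.903 to their mean and 0.799 without control mice 3 and 7. Its log2 signal was 13.08, 13.13 and 13.25 (lowest, median and highest) in ATF4 mKO mice and 12.98, 13.18 and 13.35 in control mice. The groups overlapped, and control mouse 7 had the lowest and control mouse 3 the highest signal.

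Ndufa6 (r of -0.248), Ndufv2 (-0.097) and Ndufa4 (-0.037) did not follow the mean of the other members. The value for Ndufv2 was 0.269 without control mice 3 and 7. Outside complex I, correlations were taken on the signals themselves, with the genotype means left in. The genes that correlated best with the mean of the members were Timm21 (r of 0.847 over 16 mice), a subunit of the mitochondrial import machinery, and the kinase gene Sgk3 (0.840). Next came Gtf3c1 (0.839), which encodes a subunit of an RNA polymerase III factor, Plk4 (0.829) and Atp5e (0.822), a subunit of ATP synthase. Plk4 lay at the floor, with a mean signal of 8.32. These genes were picked as the highest of 16559 genes outside the members. With 16 mice, a search of that size yields high correlations by selection alone, so the values are a description only. Without control mice 3 and 7 these correlations were 0.643 to 0.755.

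**Figure D4:**
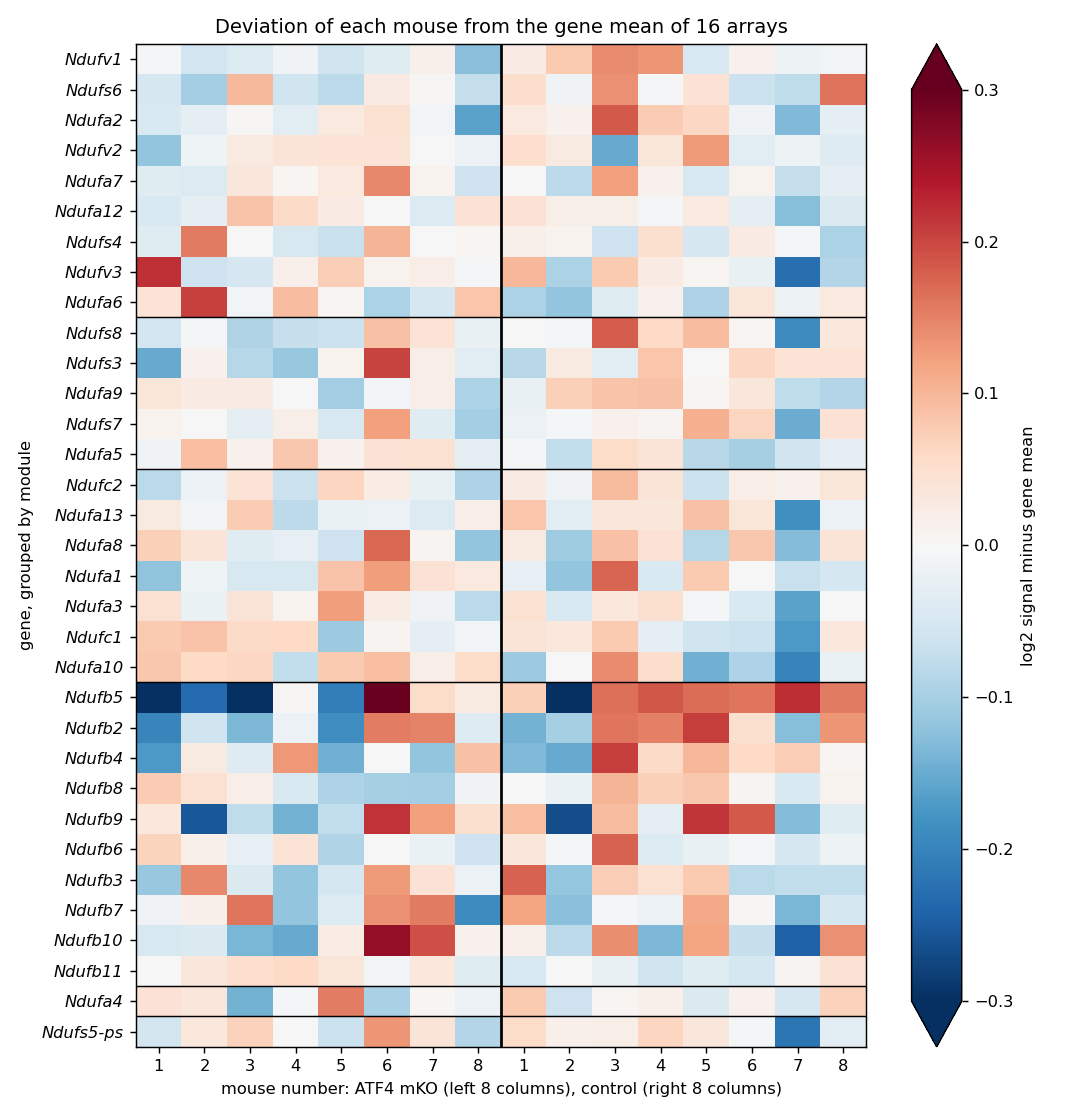
Log2 signal of each mouse minus the gene's mean over 16 arrays (color, log2 units, clipped at 0.3) for the 33 members above the floor, ordered by module from top to bottom. Columns are ATF4 mKO mice 1 to 8 and then control mice 1 to 8; control mouse 3 has 27 of 33 genes above their mean and control mouse 7 has 5.

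The regions around the transcription start were examined because members of a coordinated complex can share regulatory sites. RefSeq start-site windows (GRCm38.p6, 250 bases before to 50 after the start) were at hand for 30 of the 34 members, and not for Ndufa2, Ndufb9, Ndufs1 and Ndufs5-ps. On either strand, the letters AAGATGGCG, a form of the site of YY1, a regulator of mitochondrial genes, occurred in 5 of 30 members (16.7%) and in 1.64% of all 27025 genes with a window. The 5 matches lay 22 to 35 bases after the start. They are shown 5′ to 3′ on the gene's strand, with the match in capitals.
Ndufa9 (chr6:126849096-126849125, minus strand): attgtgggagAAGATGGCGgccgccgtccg
Ndufc1 (chr3:51408914-51408943, minus strand): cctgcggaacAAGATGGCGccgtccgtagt
Ndufs4 (chr13:114388045-114388074, minus strand): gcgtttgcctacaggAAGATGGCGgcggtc
Ndufs6 (chr13:73328433-73328462, minus strand): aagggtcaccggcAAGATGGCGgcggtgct
Ndufs7 (chr10:80249463-80249492, plus strand): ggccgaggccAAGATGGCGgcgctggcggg
The letters include ATG, so a match after the start can also be part of the beginning of a reading frame. The log2 differences of these genes ran from -0.06 (Ndufs6) to 0.04 (Ndufc1).

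Other sites were sparser. The NRF1 letters GCATGCGC occurred in 2 of 30 members (Ndufa6 and Ndufa8) and 3.05% of all genes, the ETS letters CCGGAAG, bound by GABP, in 4 (Ndufb6, Ndufb7, Ndufs3 and Ndufs8) and 9.93%, and the estrogen-related receptor letters TNAAGGTCA in 1 (Ndufb4) and 1.43%. The letters TGATGNAA, a core of the site used by ATF4 together with C/EBP factors, occurred in 0 of 30 members and in 4.51% of all genes. The cyclic AMP response element TGACGTCA occurred in 2 members (Ndufa10 and Ndufb2) and 2.03% of all genes. It is shown for both, in capitals, because Ndufa10 had the greatest positive difference (0.09) and Ndufb2 one of -0.08.
Ndufa10 (chr1:92473807-92473836, minus strand): acactcagtggTGACGTCAtggcagcgcgc
Ndufb2 (chr6:39592540-39592569, plus strand): gtgcgacgcagTGACGTCAcgggccgggac
Those genes thus carried the same letters, 67 and 14 bases before the start, with differences of opposite sign, neither of which passed the test.

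The members with the smallest p on each side are shown by the 100 bases before their start, again 5′ to 3′ on the gene's strand. None of the motifs above occurred in these stretches of Ndufv1 and Ndufa5 (the more upstream of 2 annotated starts) or of Ndufb5, the gene with the widest spread.
Ndufv1 (chr19:4012756-4012855, minus strand): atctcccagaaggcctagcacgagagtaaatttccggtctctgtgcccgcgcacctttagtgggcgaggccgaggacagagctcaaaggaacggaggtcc
Ndufa5 (chr6:24527691-24527790, minus strand): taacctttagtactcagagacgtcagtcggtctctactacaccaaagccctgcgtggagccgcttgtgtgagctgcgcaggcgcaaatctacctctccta
Ndufb5 (chr3:32736963-32737062, plus strand): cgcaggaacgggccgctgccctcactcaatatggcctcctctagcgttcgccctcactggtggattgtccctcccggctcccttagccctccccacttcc
A match to these letters is a description of the sequence and no evidence of binding. The members lie on 15 chromosomes, and Ndufa6 and Ndufb9 share chromosome 15 with Atf4.

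Assembly factors build complex I without remaining in it. Of 16 measured assembly factors, 1 passed the test, Ndufaf5, which in human cells hydroxylates an arginine of NDUFS7 during early assembly. Ndufaf5 had log2 signals of 11.25, 11.44 and 11.47 (lowest, median and highest) in ATF4 mKO mice and 10.92, 11.15 and 11.35 in control mice. All 8 ATF4 mKO mice were above the control mean and the ranges overlapped. The difference was 0.26 ± 0.05 (S.E.), with an adjusted p of 0.0663 (limma). A dimmer Ndufaf5 probe had means of 9.04 in ATF4 mKO mice and 9.03 in control mice, a difference of 0.01, so the call rested on 1 of 2 probes. The call was also fragile to single mice. It was kept in 5 of 16 fits with an array left out (ATF4 mKO mice 1 and 2 and control mice 1, 5 and 7) and lost in the other 11, without control mice 3 and 7 together (adjusted p of 0.165) and with the methods' t-test (0.155), with a difference of 0.22 to 0.29 over all alternatives. The assembly factors had a median difference of 0.0002, with 8 lower and 8 higher.

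The other respiratory complexes had no called gene either. Of the 42 measured genes of complexes II to V, 32 (76.2%) had a lower mean in ATF4 mKO mice, with a median difference of -0.02, compared with 19 of 34 complex I genes. The difference between these shares was not tested. Complex IV had 12 of 14 genes lower (median -0.03), complex V 14 of 16 (median -0.02), complex III 5 of 9 and complex II 1 of 3. The smallest p among them belonged to Atp5g1, which encodes the ring subunit of ATP synthase, with means of 14.43 in ATF4 mKO mice and 14.54 in control mice, a difference of -0.11 and an adjusted p of 0.651 (limma). Cox8a, a subunit of cytochrome c oxidase, had means of 11.19 in ATF4 mKO mice and 11.34 in control mice, a difference of -0.15 and an adjusted p of 0.811 (limma).

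Of 14 measured regulators of respiratory genes, among them the coactivator gene Ppargc1b, none was called, and 7 had a lower and 7 a higher mean in ATF4 mKO mice. Only 8 of the 14 had a signal above the floor, and the rest could hardly show a difference. Ppargc1b had means of 9.46 in ATF4 mKO mice and 9.36 in control mice, a difference of 0.09 with an adjusted p of 0.911 (limma).

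Fiber types differ in mitochondrial content, so markers of them are given beside the members. All 10 slow fiber genes had a lower mean in ATF4 mKO mice, with a median difference of -0.20 and none called, and their level in a mouse, by the measure used for complex I, ran from -0.61 to 0.39 in ATF4 mKO mice and from -0.23 to 0.36 in control mice. Fast fiber genes (11 measured, 5 lower) had a median difference of 0.0032, with a level of -0.078 to 0.099 in ATF4 mKO mice and -0.072 to 0.077 in control mice. Markers of endothelial cells (6 of 6 lower, median -0.03), macrophages (3 of 4 lower, median -0.02), fibroblasts (4 of 5 lower, median -0.03), adipocytes (2 of 5 lower, median 0.02), satellite cells (0 of 4 lower, median 0.0088), Schwann cells and nerve (1 of 2 lower, median -0.03) and blood (4 of 4 lower, median -0.21) had no called gene. The satellite cell gene Pax7 was at the floor with a mean signal of 8.32. Signals above the floor were found for 5 of the 6 endothelial, 2 of the 4 macrophage, 4 of the 5 fibroblast and 3 of the 5 adipocyte genes. The same held for 1 of the 4 satellite cell genes, 1 of the 2 Schwann cell and nerve genes and 3 of the 4 blood genes. Signs of genes at the floor carry little information. The part of these lists in the values of the complex I genes was not tested.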

How the data were processed

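Total RNA of quadriceps femoris muscle, 1 mouse per array, was labeled and hybridized by the authors to Illumina Mouse Ref-8 version 2 arrays. The authors deposited 1 table of log2 signals per probe, which was used as given. The sources used here state neither its background correction and normalization nor the slide of any array, so a slide effect could not be examined. Genotype and mouse number came from the labels, and gene symbols from the platform's annotation.

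ATF4 mKO minus control was estimated for all 25697 probes over 16 arrays with limma 3.58.1 in R 4.3.3 (lmFit, eBayes, two-sided). Benjamini-Hochberg adjustment covered every probe, and calls were made at 0.1 or less. Intervals are 95% intervals of single probes, not adjusted. A log2 signal of 8.5 or less was treated as floor. As an alternative, the methods' t-test used these same values. The fit was tested on simulated data.

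The members, the comparison lists, the modules, the named genes and the motifs were chosen with earlier results of these data known. Values by mouse are given for the 4 members on each side with the smallest p, for members with strong or dim signals or with probes of opposite sign, for Ndufs8 as the member most like the rest, and for called genes and at most 2 genes of a comparison list. Ndufs8 and Ndufb5's split of mice were singled out after their values were seen. Motifs were searched as exact letters on both strands (Python 3.11.15).

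Alternatives were quantile normalization, median centring, omission of dim probes, array weights, mouse number as a block, each array left out, omission of control mice 3 and 7, another variance prior, averaging the probes of a gene, and other thresholds.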

Additional observations from a re-analysis of the deposited data

Results flagged for a closer look

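Of 70 groups of 8 mice examined (the members and Atf4), 10 held a mouse whose log2 signal stood apart from the other 7 of its genotype by Dixon's criterion, where chance alone gives about 5%. Among ATF4 mKO mice, mouse 4 was low for Ndufa10 (12.96), mouse 8 was low for Ndufa2 (13.51), mouse 6 was high for Ndufa7 (13.45) and mouse 1 was low for Ndufv2 (13.86). Control mouse 7 was low for Ndufa13 (14.44), Ndufa3 (13.70) and Ndufs5-ps (12.80). Control mouse 3 was high for Ndufa7 (13.43) and Ndufb6 (13.91). Control mouse 2 was low for Ndufb5 (11.22, with the next control at 11.60). None of these genes passed limma's test between genotypes with all 16 arrays or with any single array left out.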

How the results depend on the processing

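The 24 alternatives for Ndufaf5 were added after its value was seen, and its adjusted p ran from 0.0098 to 0.260, which was the value with the replicate block. The number of called probes, 35, was 28 to 37 with single arrays left out, 16 with mouse number as a replicate block, and 733 with the methods' t-test at an unadjusted p of 0.025. That t-test called 1 complex I gene and 1 complex I probe, Ndufv1, and all other settings called 0. Ndufv1 had an adjusted p of 0.523 to 0.942 over the alternatives. Mouse numbers gave no clear sign of pairing, although these values cannot settle whether they pair littermates. After the genotype means were removed, same-numbered mice correlated between -0.23 and 0.26 over probes with a signal above 9. By this measure 1 of 8 ATF4 mKO mice was closest to the control of its own number. With the probes of a gene averaged, the complex I level was -0.036 in ATF4 mKO mouse 1 (-0.011 with the brightest probe) and 0.074 in ATF4 mKO mouse 6 (0.044). The median difference of the members ran from -0.0143 to 0.0053 and had the same sign in 22 of 25 settings. The 8 members with the smallest p on each side kept their sign in all 192 refits. They were chosen by their p in these same arrays, so a kept sign was nearly assured and is no support for a difference. Signals near the floor limit Ndufs1, Ndufab1 and Ndufb11.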
